A study of Mus musculus with 18 samples.

Results

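The comparison described here is that of mouse embryonic stem cells (ESCs) carrying a conditional knockout (cKO) of Oct1 with their parental cells at day 0, before any differentiation. It uses 6 of the 18 libraries of the series, 3 parental and 3 cKO, chosen by their genotype and day labels, and it covers every gene with enough counts to be tested. The other 12 libraries come from days 3 and 6 of a differentiation of the same genotypes. They entered the model that estimates the spread of each gene and are otherwise used only to follow the day 0 changes. Total RNA was extracted with Trizol from trypsinised cells. The labels name no agent or Cre driver for the deletion, and they do not say whether the cells are 1 clone or whether the libraries of a group come from separate cultures. Every p-value therefore measures only the spread between libraries. For single genes that spread, and the standard error, is taken over all 18 libraries, days 3 and 6 among them. A gene with close values within each day 0 group can thus remain uncalled.

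Oct1, the product of Pou2f1, is a broadly expressed transcription factor of the POU family. Its DNA-binding domain resembles that of Oct4, the pluripotency factor encoded by Pou5f1, and both proteins bind the octamer element ATGCAAAT. ESCs rely on glycolysis together with respiration, and mouse ESCs are known for a strong dependence on threonine, glycine and one-carbon metabolism. They hold to each other through E-cadherin, and cytokines of the LIF family, FGF, Wnt and Nodal-related ligands set the balance between self-renewal and exit from pluripotency.

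The 6 libraries held 13704958 to 19117563 counts over 25279 genes, of which 20267 were tested. Levels are normalised CPM, that is counts scaled to library size, log2 fold changes are cKO against parental with their standard error (SE), and a gene was called when its adjusted p was under 0.05 in edgeR's quasi-likelihood test. Pou2f1 was lower in each cKO library, at 86.8, 88.2 and 62.2 CPM against 135, 124 and 126 CPM (−0.70 ± 0.11), so transcripts of the gene remained. Counts are summed over the gene and do not show which exons they come from. Among the cKO libraries, replicates 1 and 2 differed by little more than sampling noise (chi-square per degree of freedom 1.23, against 3.37 to 12 for the other pairs within a group). Replicate 3 stood apart, with a correlation across genes of 0.992 with both, while the other within-group pairs reached 0.998. All 12 ESC markers, among them Nanog, Sox2, Esrrb and Zfp42, were present in all 6 libraries, 5 of them called higher in cKO and 0 lower, or 3 without cKO replicate 3. A fit of the 6 day 0 libraries alone called 6 ESC markers higher and 1 lower. Primitive and visceral endoderm markers were 3 higher and 0 lower of 13, trophoblast markers 3 and 2 of 10, and blood cell markers 2 and 0 of 4, the last with a summed level of 8.32 to 9.47 CPM in parental and 21.1 to 23.5 CPM in cKO libraries. The blood count was 1 higher and 0 lower of 6 without cKO replicate 3.

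Of the genes tested, 31.6% were called, 15.1% higher and 16.5% lower in cKO cells, while 4.17% were called at least 2-fold higher and 4.83% at least 2-fold lower. The share of calls that were higher was 47.7%, or 52.8% with RLE factors or DESeq2. The values of the groups did not overlap for 52.4% of genes. These shares are the background for the counts of markers above and of list members below. Of genes with a mean of at least 5 CPM, the background for the counts by chromosome, 21.5% were called higher and 23.7% lower.

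One chromosome moved as a whole. Of 884 genes on chromosome 11 with a mean of at least 5 CPM, 533 were called lower in cKO cells and 46 higher, and their median log2 fold change was −0.38, a ratio of 0.77. The medians of the other chromosomes lay between −0.06 (chromosome 14) and 0.14 (chromosome 7). Each cKO library showed it, with chromosome 11 medians of −0.40, −0.39 and −0.35 against the parental mean and medians of 0.02 to 0.04 elsewhere. Cut into 6 blocks of about equal gene number along its length, the chromosome gave medians between −0.50 and −0.29, so no block lacked the shift. The median was −0.40 at day 3 and −0.48 at day 6. Its cause was not tested. Outside chromosome 11, 2970 genes were higher and 2722 lower, 15.8% and 14.5% of 18777 tested. Genes on chromosome 11 are marked as such below, and a lower level of such a gene cannot be told apart from the shift of its chromosome unless it lies far outside it. The middle 90% of the 884 genes lay between −1.09 and 0.41.

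**Figure D1:**
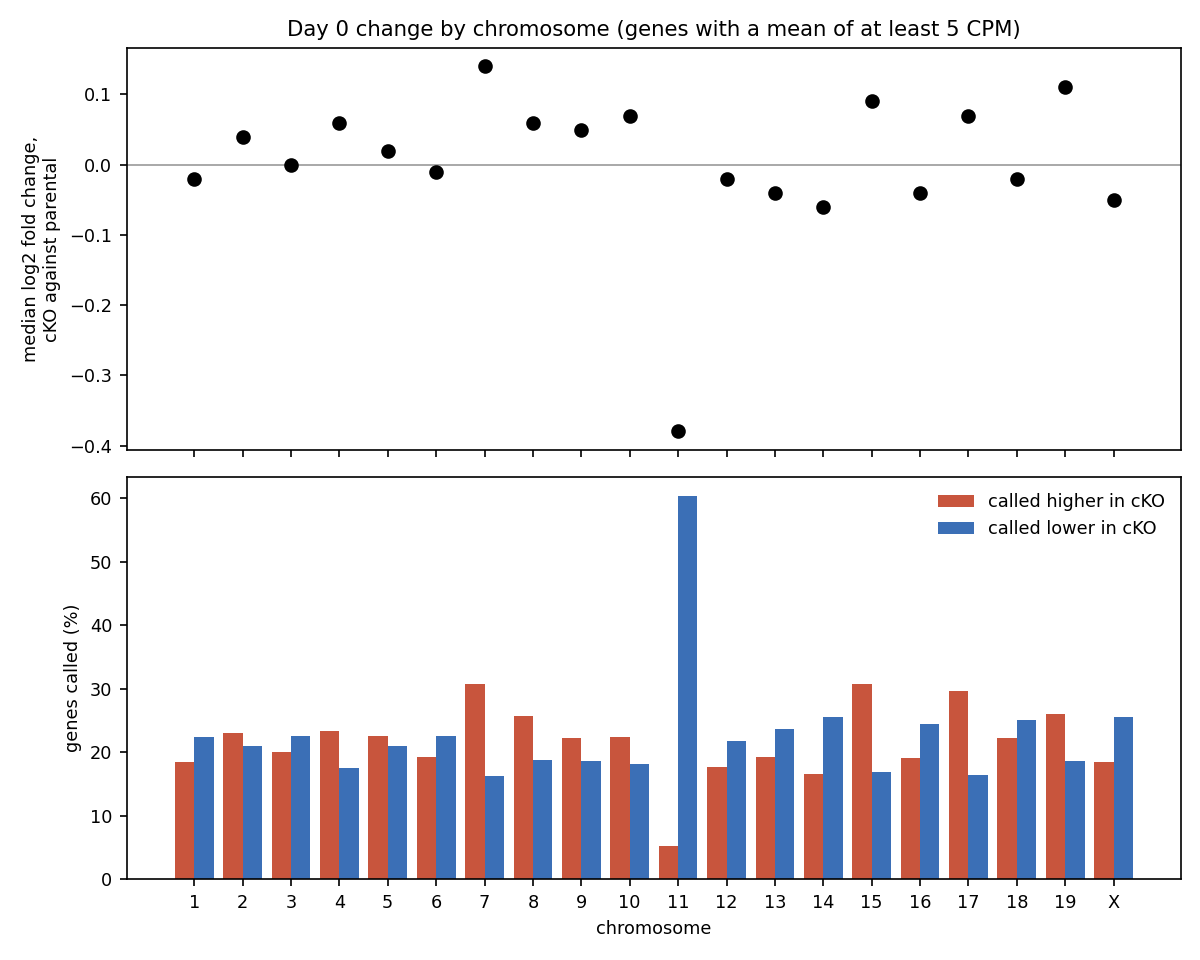
Median log2 fold change of cKO against parental ESCs at day 0 (upper panel) and the percentage of genes called higher or lower in cKO (lower panel, bars from 0) for each chromosome, over genes with a mean of at least 5 CPM. Chromosome 11 has a median of −0.38 and 60.3% of its genes called lower, while the other medians lie between −0.06 and 0.14.

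Genes were grouped in 60 lists of metabolic, adhesion, signalling and transcription factor genes. Metabolic lists held the largest share of calls of these 4 groups. Of 361 metabolic genes tested, 66 were higher and 111 lower, 49.0% in all, and outside chromosome 11 the counts were 66 and 90 of 333. For adhesion they were 58 higher and 64 lower of 311, for signalling 78 and 94 of 471, and for transcription factors 88 and 80 of 422. Outside chromosome 11 these last 3 groups had 57 higher and 55 lower, 74 and 74, and 85 and 73. A difference of these shares from the background was not tested. Among genes with a mean of at least 5 CPM, 21.5% were called higher and 23.7% lower, more than over all genes tested. The lists were not matched to the background for level. For the lists described below, a count that moved by over 1.5 times without cKO replicate 3 is given beside the list.

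**Figure D2:**
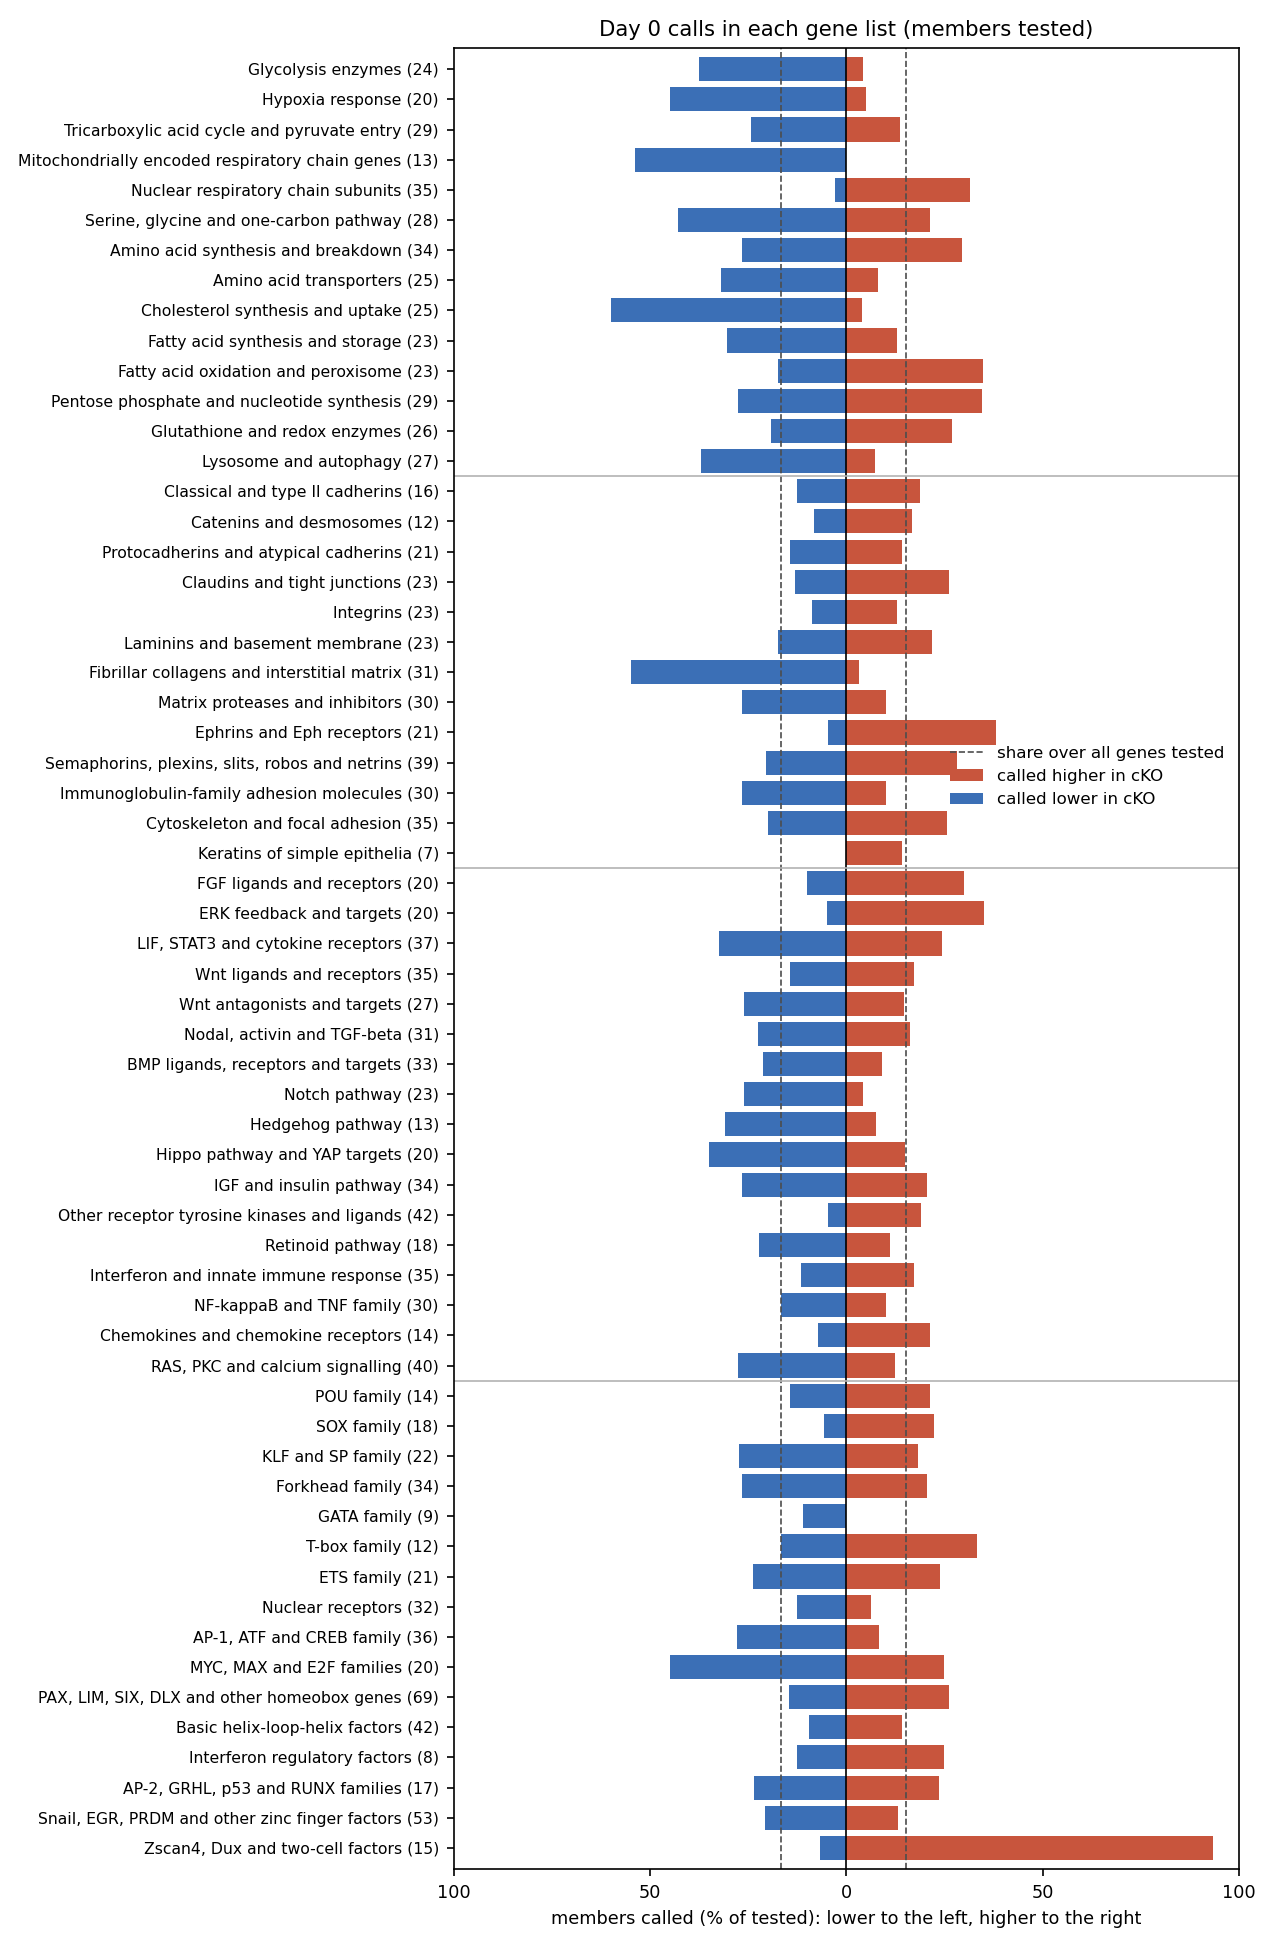
Percentage of the tested members of each list called lower (bars to the left) or higher (bars to the right) in cKO ESCs at day 0, with the number tested in brackets and the shares over all genes tested as dashed lines (16.5% lower, 15.1% higher). Cholesterol synthesis, the fibrillar collagens and the mitochondrially encoded genes lean to the lower side, and the nuclear respiratory chain, ephrins and 2-cell embryo factors to the higher side.

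In central carbon metabolism, several enzymes and exporters of glycolysis and several hypoxia-responsive genes were lower. Of 24 glycolysis genes 9 fell and 1 rose (median −0.33), and 6 of 20 fell outside chromosome 11. Ldhb, a lactate dehydrogenase subunit, was at 312, 320 and 311 CPM in the parental and 92.5, 94.4 and 111 CPM in the cKO libraries (−1.66 ± 0.13, adjusted p = 8.73e-08). The groups were far apart, with cKO replicate 3 the highest of its group. Pfkp, the platelet-type phosphofructokinase, was at 856, 864 and 881 against 359, 376 and 347 CPM (−1.26 ± 0.16). Pfkfb3, whose product makes the activator of phosphofructokinase, changed by −1.09 ± 0.20, and Slc16a3, a lactate exporter on chromosome 11, by −1.77 ± 0.32. Gapdh (0.14 ± 0.09, adjusted p = 0.29) and Pkm were not called.

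Among 20 hypoxia-responsive genes 9 fell and 1 rose, with a median of −0.57. Bnip3, a mitophagy receptor, was at 131, 128 and 131 CPM in parental cells and 43.5, 40.4 and 42.3 CPM in cKO cells (−1.63 ± 0.41, adjusted p = 0.00781). The prolyl hydroxylase subunit gene P4ha2 (−1.30 ± 0.15, chromosome 11) and the oxidoreductase gene Ero1l (−1.23 ± 0.14) fell too. The member that rose encodes a hypoxia-inducible factor itself. Epas1, for HIF-2 alpha, was at 70.4, 66.5 and 69.1 CPM in parental and 163, 171 and 154 CPM in cKO cells (1.25 ± 0.13, adjusted p = 6.72e-07), with no overlap. Hif1a was at 177 to 183 CPM in parental and 164 to 201 CPM in cKO libraries (0.05 ± 0.08, not called).

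Transcripts of the respiratory chain differed by the genome that encodes them. Of 13 mitochondrially encoded genes 7 fell and 0 rose, and the fit of the 6 libraries alone, in which 8 passed the low-count filter, also called 7 lower. mt-Co1, for a subunit of cytochrome oxidase, was at 11673, 11190 and 11706 CPM in parental and 7280, 7166 and 6700 CPM in cKO libraries (−0.71 ± 0.07, adjusted p = 3.49e-07). mt-Nd6, for the complex I subunit read from the opposite strand of the mitochondrial genome to the rest of these mRNAs, was at 113, 114 and 111 against 32.6, 31.3 and 38 CPM (−1.73 ± 0.11). Mitochondrially encoded mRNA took 1.32% ± 0.0774 (SD, n = 3) of cKO and 2.08% ± 0.0664 (SD, n = 3) of parental counts, an exact permutation test giving p = 0.1, the smallest that 3 against 3 libraries allow. Since the strand setting of the counting is unknown, mt-Nd6 may share reads with the genes opposite it.

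Of 35 nuclear-encoded subunits, by contrast, 11 rose and 1 fell, by small amounts and with a median of 0.12. Cox6b1, a cytochrome oxidase subunit, was at 171, 166 and 176 CPM in parental and 227, 229 and 280 CPM in cKO libraries (0.52 ± 0.08). Cox4i1, another, was at 316, 332 and 322 against 382, 398 and 508 CPM (0.41 ± 0.09). In both, cKO replicate 3 was the highest, as was its share of ribosomal protein mRNA, at 6.68% of counts against 5.41% and 5.48% in the other cKO libraries. Without this library 5 of 35 subunits rose and 2 fell, with a median of 0.04, whereas the mitochondrially encoded count stayed at 7 lower. Atp5b, an ATP synthase subunit, was not called (0.00 ± 0.07).

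The serine, glycine and one-carbon pathway, which supplies carbon units for nucleotides and methylation, had 12 members lower and 6 higher of 28. The lower members include the entry steps of serine synthesis. Phgdh, the first enzyme of the route, was at 105, 114 and 106 CPM in parental and 54.1, 57.1 and 65.1 CPM in cKO cells (−0.88 ± 0.08, adjusted p = 8.93e-08). Psat1, the next, was at 387, 391 and 397 against 187, 181 and 192 CPM (−1.07 ± 0.11). All cKO libraries lay well under the parental ones for both. Gldc, of the glycine cleavage system, changed by −1.03 ± 0.19, and the mitochondrial folate enzyme genes Mthfd2 and Aldh1l2 by −0.97 ± 0.07 and −1.26 ± 0.25. The cytosolic folate enzyme gene Mthfd1, named after its values were seen, went the other way, from 325, 337 and 331 to 474, 458 and 475 CPM (0.50 ± 0.05).

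Amino acid enzymes moved both ways, 10 higher and 9 lower of 34, including some of the largest changes among metabolic genes. Aass (ENSMUSG00000029695, GRCm38 chromosome 6, minus strand, 23072173 to 23132986), whose product starts lysine breakdown, fell from 29.3, 26.3 and 28.5 to 3.07, 2.19 and 3.07 CPM (−3.33 ± 0.23, adjusted p = 7.07e-09). Pycr1, for proline synthesis, changed by −1.54 ± 0.11 and lies on chromosome 11. Cth, which makes cysteine from cystathionine, rose from 109, 112 and 112 to 287, 288 and 286 CPM (1.37 ± 0.16), and Hal, for histidine breakdown, rose by 1.59 ± 0.18. The cKO libraries agree closely for each of these genes and overlap the parental ones for none. Amino acid transporters were 2 higher and 8 lower of 25, or 1 and 8 without cKO replicate 3, among them the neutral amino acid carriers Slc1a4 (−1.58 ± 0.11, chromosome 11) and Slc1a5 (−0.67 ± 0.13), while the creatine carrier gene Slc6a8 rose. Asns, a common target of amino acid stress signalling, was not called (0.11 ± 0.10).

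Cholesterol synthesis had most of its members lower. Of 25 genes tested 15 fell and 1 rose (median −0.31), and none of the 25 is on chromosome 11. Most of the changes were small. Insig1, a sterol-regulated brake on the pathway, was at 198, 193 and 192 CPM in parental and 90.4, 99.3 and 91.8 CPM in cKO cells (−1.05 ± 0.12), and was the only called member past 2-fold. Cyp51, an enzyme of lanosterol processing, was at 155, 160 and 158 against 94.1, 90.8 and 94.2 CPM (−0.76 ± 0.08). Dhcr7 and Fdps, of the last step and the isoprenoid stage, changed by −0.81 ± 0.09 and −0.64 ± 0.09. For these 4 genes the groups did not overlap. Hmgcs1, for an early enzyme of the route, was not called (−0.06 ± 0.10).

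Fatty acid synthesis had 3 higher and 7 lower of 23, but 3 of the lower ones are on chromosome 11, among them Acly, which makes cytosolic acetyl-CoA (−0.59 ± 0.07). Acacb, the mitochondrial acetyl-CoA carboxylase, rose from 35.8, 38.9 and 38.8 to 94.2, 88.8 and 85.6 CPM (1.24 ± 0.14). In fatty acid oxidation 8 rose and 4 fell of 23, and Slc25a20, the carnitine carrier, rose by 0.86 ± 0.08. Of 26 glutathione and redox genes 7 rose and 5 fell, and Gsto1, a glutathione transferase, went from 72.6, 74.5 and 79.4 to 222, 219 and 243 CPM (1.60 ± 0.22). Gpx1, a glutathione peroxidase, rose by 0.98 ± 0.18, with cKO replicate 3 highest at 596 CPM. Nucleotide and pentose phosphate genes, 10 higher and 8 lower of 29, were 5 higher and 6 lower without that library. Lysosome and autophagy genes were 2 higher and 10 lower of 27, 4 of the lower ones on chromosome 11. In the fit of the 6 day 0 libraries alone they were 8 higher and 11 lower. That fit gave 7 higher and 10 lower of 23 fatty acid synthesis genes. Tfeb, a regulator of lysosome genes, rose by 1.01 ± 0.24.

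**Figure D3:**
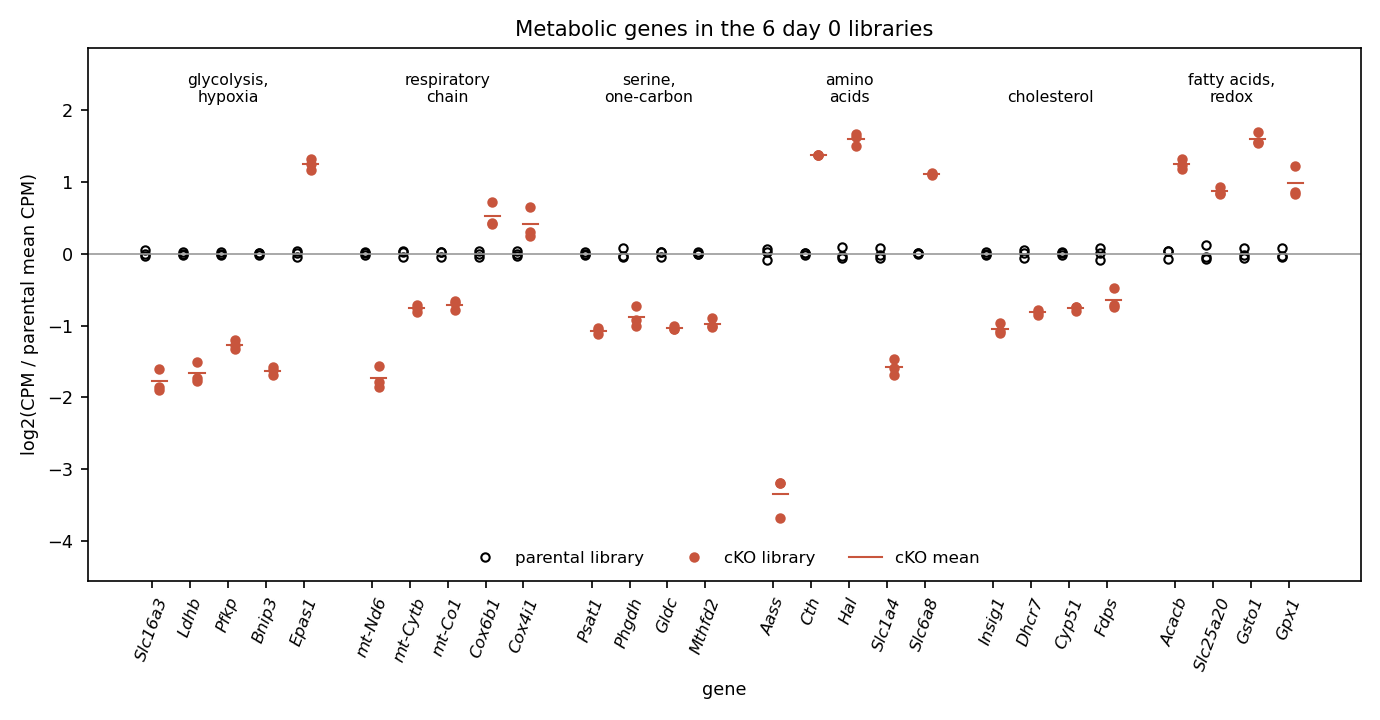
Level of metabolic genes in each day 0 library as log2 of its CPM over the parental mean (open circles parental, filled circles cKO, line the cKO mean). Psat1, Phgdh, Gldc and Mthfd2 have log2 fold changes between −1.07 and −0.88, the mitochondrially encoded genes lie below 0 and the nuclear subunits Cox6b1 and Cox4i1 above it, and Aass lies lowest.

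In the adhesion genes the main difference was a lower level of interstitial matrix. Of 31 fibrillar collagen and interstitial matrix genes 17 fell and 1 rose, 13 of the lower ones past 2-fold, with a median of −0.99, and 17 fell and 0 rose without cKO replicate 3. Col1a2, a chain of type I collagen, was at 201, 218 and 201 CPM in parental and 60, 57.4 and 59.4 CPM in cKO libraries (−1.81 ± 0.07, adjusted p = 4.78e-12). Loxl2, a collagen cross-linking enzyme, was at 72.9, 70.1 and 73 against 18, 20.2 and 20.6 CPM (−1.87 ± 0.20), and the matrix glycoprotein gene Fbln2 changed by −1.62 ± 0.32. Tnc, named after its values were seen and encoding the glycoprotein tenascin C, went from 150, 154 and 160 to 61.5, 59.3 and 50.7 CPM (−1.44 ± 0.25). Fn1, for fibronectin, was not called, at 3428, 3472 and 3502 against 2733, 2708 and 2167 CPM (−0.45 ± 0.31).

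A list of 18 fibroblast and feeder markers, which shares members with the matrix genes, moved with them: 9 fell and 1 rose, and their summed level was 1880 to 1979 CPM in parental and 908 to 940 CPM in cKO libraries. No marker was at 0 throughout a group, but Dcn (1.67 to 1.8 CPM in parental, 0.813 to 1.5 CPM in cKO libraries) and Lum (at most 0.374 CPM) were near 0 in both. The part of fibroblast or feeder cells in the lower matrix level was not tested. In bulk RNA fewer cells of a type and less RNA per cell cannot be told apart. Matrix proteases and their inhibitors were 3 higher and 8 lower of 30, with the protease gene Adamts5 (−1.84 ± 0.37) and the inhibitor gene Timp3 (−0.81 ± 0.12) lower and Adam23 (1.54 ± 0.16) higher.

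Basement membrane genes did not follow the interstitial ones. Of 23 tested, 5 rose and 4 fell, with a median of 0.00, or 5 and 1 without cKO replicate 3. Lamc1, for the laminin gamma 1 chain, was at 592, 583 and 589 CPM in parental and 1152, 1133 and 915 CPM in cKO libraries (0.86 ± 0.13, adjusted p = 0.000106). The alpha chain genes Lama1 and Lama5 rose by 0.82 ± 0.24 and 0.82 ± 0.25. The Lama1 call was lost without parental replicate 1 (adjusted p = 0.0563), parental replicate 2 (0.0582) or cKO replicate 1 (0.063). The Lama5 call was lost without any day 0 library other than cKO replicate 3 (0.0586 to 0.0747). Col4a5, a type IV collagen chain, fell by 1.31, a call lost without cKO replicate 3 (adjusted p = 0.0507).

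Cell-cell adhesion genes changed in single members. Cdh1, for E-cadherin, was at 636, 634 and 641 CPM in parental and 657, 672 and 647 CPM in cKO cells (0.05 ± 0.40, not called). Cdh3, for P-cadherin, was at 75.9, 78.9 and 75.1 against 25.7, 27.7 and 25.6 CPM (−1.54 ± 0.11), and Cdh4, for R-cadherin, at 7.42, 8.38 and 8.03 against 26.9, 24.4 and 23.5 CPM (1.65 ± 0.15). Each of these 2 genes separated the groups completely. The desmosome gene Pkp2 changed by −1.02 ± 0.14. Claudins and tight junction genes were 6 higher and 3 lower of 23, and 3 and 2 without cKO replicate 3.

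Among immunoglobulin-family adhesion molecules 3 rose and 8 fell of 30. Pecam1, on chromosome 11, was at 275, 273 and 281 CPM in parental and 108, 106 and 102 CPM in cKO cells (−1.39 ± 0.11), below the middle 90% of its chromosome. Nectin1 (1.32 ± 0.11) and the laminin receptor gene Bcam (1.08 ± 0.27) rose. Integrins, the matrix receptors, were 3 higher and 2 lower of 23: Itgb5 rose by 0.81 ± 0.15, Itga11, for a collagen receptor chain, fell by 1.23, and Itgb1, the common beta chain, missed the threshold (−0.44 ± 0.16, adjusted p = 0.052). In the cytoskeleton list 9 rose and 7 fell of 35, or 6 and 4 without cKO replicate 3. The 6 day 0 libraries alone gave 12 higher and 14 lower. Actn4, an actin cross-linker, rose from 462, 486 and 462 to 909, 910 and 954 CPM (0.98 ± 0.12).

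Guidance molecules were changed in both directions. Ephrins and their receptors were 8 higher and 1 lower of 21. Efna4, an ephrin A ligand, was at 9.85, 9.34 and 8.65 CPM in parental and 22.3, 21.3 and 24.8 CPM in cKO libraries (1.30 ± 0.12), and Efna3 rose by 1.44 ± 0.17. Epha2, a receptor, was at 167 to 179 against 226 to 236 CPM and was not called (0.43 ± 0.30). Semaphorins, plexins, slits, robos and netrins were 11 higher and 8 lower of 39, with Sema5a (1.71 ± 0.28), Unc5b, a netrin receptor (1.37 ± 0.38), and its ligand gene Ntn1 (1.27 ± 0.32, chromosome 11) higher, and Plxnd1 (−1.78 ± 0.28) and Slit3 (−1.55 ± 0.26, chromosome 11) lower.

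**Figure D4:**
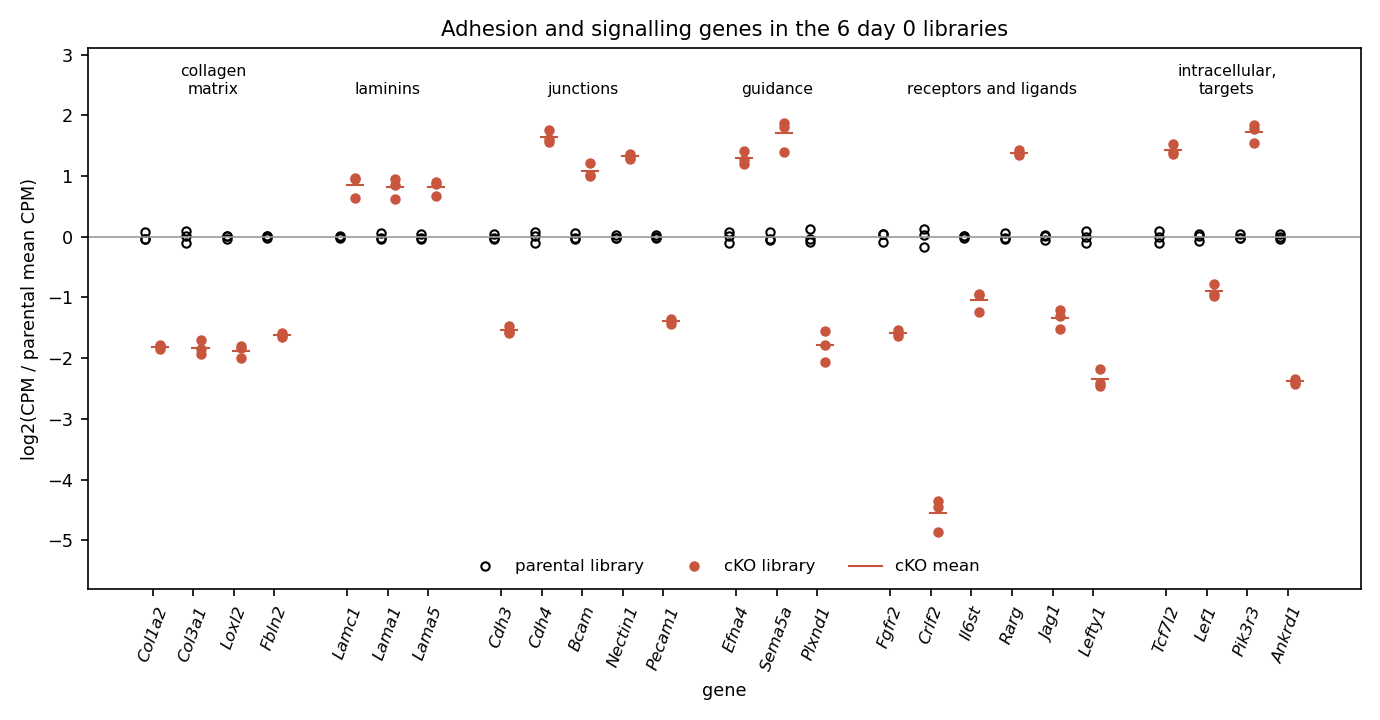
Level of adhesion and signalling genes in each day 0 library as log2 of its CPM over the parental mean (open circles parental, filled circles cKO, line the cKO mean). The collagen matrix genes have log2 fold changes between −1.87 and −1.62 and the laminin genes between 0.82 and 0.86, and Crlf2 lies lowest of all, with a log2 fold change of −4.52.

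In signalling, cytokine receptors gave the largest change among called genes with a mean of at least 5 CPM. Crlf2 (ENSMUSG00000033467, chromosome 5, minus strand, 109554709 to 109558993), which encodes the receptor for thymic stromal lymphopoietin, was at 14, 15 and 12.3 CPM in parental and 0.674, 0.47 and 0.626 CPM in cKO libraries (−4.52 ± 0.37, adjusted p = 5.99e-08). Il6st, for gp130, the shared signalling chain of the LIF receptor complex, was at 192, 193 and 189 against 98.3, 99.5 and 81.2 CPM (−1.04 ± 0.12, adjusted p = 5.52e-06). Both genes separated the groups without overlap. Osmr, for a partner of gp130, changed by −1.34 ± 0.20, and Il6ra rose by 1.33 ± 0.25. Stat3, the transducer of LIF signals, lies on chromosome 11 and was not called (−0.05 ± 0.07). It was at 122, 113 and 116 against 114, 117 and 108 CPM. Over the list 9 rose and 12 fell of 37, or 7 and 7 without cKO replicate 3.

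Among called FGF and ERK genes more rose than fell. Of 20 FGF ligands and receptors 6 rose and 2 fell (median 0.21, or 0.02 without cKO replicate 3). The 6 day 0 libraries alone gave 7 higher and 4 lower of 17 (median 0.38). The summed level of the list was 579 to 588 CPM in parental and 528 to 536 CPM in cKO libraries. Fgfr1 rose from 83.8, 83.6 and 85.5 to 123, 120 and 119 CPM (0.52 ± 0.06), whereas Fgfr2 fell from 12, 10.9 and 12 to 3.89, 4 and 3.75 CPM (−1.58 ± 0.19). Fgf4, the ligand made by ESCs, was at 440 to 448 against 348 to 363 CPM and missed the threshold (−0.32 ± 0.13, adjusted p = 0.075). Among 20 genes of ERK feedback and targets 7 rose and 1 fell, with a median of 0.07. The ETS factor gene Etv1 (1.11 ± 0.12), Phlda1 (0.96 ± 0.13) and the ERK phosphatase gene Dusp6 (0.73 ± 0.18) rose, while Etv5 and Spry2, a further ETS factor and a feedback inhibitor, were not called at 0.08 ± 0.07 and 0.06 ± 0.07. Of 42 other receptor tyrosine kinases and ligands 8 rose and 2 fell, but in a fit of the 6 day 0 libraries alone 13 rose and 11 fell of 37. In this list Tie1, an endothelial receptor gene, rose from 3.3, 3.26 and 3.27 to 16.4, 15 and 14.9 CPM (2.23 ± 0.34).

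Single Wnt genes changed in both directions. The HMG-box factors that carry Wnt signals to DNA split: Tcf7l2 rose from 5.17, 5.57 and 5.99 to 14.3, 16.1 and 14.7 CPM (1.43 ± 0.10), and Lef1 fell from 36.4, 37.1 and 34.3 to 18.2, 21 and 18.6 CPM (−0.90 ± 0.11). Tcf7, on chromosome 11, changed by −0.76 ± 0.08. Sfrp1, a secreted Wnt antagonist, rose from 144, 134 and 141 to 379, 374 and 353 CPM (1.40 ± 0.25), and the feedback gene Axin2, on chromosome 11, changed by −0.94 ± 0.14. The antagonist and target list had 4 higher and 7 lower of 27, and 4 and 4 of 22 outside chromosome 11. The last counts are 18.2% each way, against 15.8% higher and 14.5% lower of all genes tested there. Without cKO replicate 3 the list had 2 higher and 7 lower. Ligands and receptors were 6 higher and 5 lower of 35, or 5 and 3 of 36 without that library. Their called share, 31.4%, was near the 31.6% of all genes tested. Porcn, needed for Wnt secretion, rose by 0.86 ± 0.16.

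Nodal and TGF-beta genes were 5 higher and 7 lower of 31. Lefty1, a secreted Nodal antagonist, was at 99.2, 114 and 107 CPM in parental and 19.5, 20 and 23.6 CPM in cKO cells (−2.34 ± 0.14). Pcsk6, for a protease that activates Nodal, rose from 113, 114 and 120 to 245, 247 and 232 CPM (1.06 ± 0.11), and Acvr1b, a receptor gene, rose by 1.05 ± 0.12, while the co-receptor gene Tdgf1, was not called. In the BMP list 3 rose and 7 fell of 33, or 7 and 9 of 29 with the 6 day 0 libraries alone. The target genes Id3 (0.87 ± 0.17) and Id4 (−0.59 ± 0.14) went in opposite directions. Notch genes were 1 higher and 6 lower of 23, or 0 and 7 without cKO replicate 3: the ligand gene Jag1 went from 89.5, 89 and 84.9 to 35.7, 38 and 30.5 CPM (−1.34 ± 0.09), and Notch1 (−0.34 ± 0.15) was not called.

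Other pathways held single large changes. Igfbp4, an IGF-binding protein gene on chromosome 11 (99041244 to 99054392, plus strand), fell from 66.4, 71.4 and 62.3 to 7.34, 7.45 and 7.13 CPM (−3.19 ± 0.20), far below the middle 90% of that chromosome. Within the insulin pathway, where 7 rose and 9 fell of 34, Pik3r3, a regulatory subunit of PI3 kinase, rose from 16.2, 16.9 and 16.2 to 56.3, 58.8 and 47.8 CPM (1.72 ± 0.12). Of 20 Hippo pathway and YAP target genes 7 fell and 3 rose. Ankrd1, a YAP target, was at 29.6, 28.9 and 28 against 5.39, 5.49 and 5.69 CPM (−2.38 ± 0.28), and the kinase genes Lats1 (−0.94 ± 0.08) and Stk3 (−0.61 ± 0.08) fell, while the co-activator gene Wwtr1 rose by 0.61 ± 0.14. In the retinoid list Rarg, a retinoic acid receptor gene, rose from 43.4, 46.7 and 44 to 116, 114 and 120 CPM (1.38 ± 0.24), and Stra8, a retinoid-responsive gene of meiosis, fell by 2.98. Interferon and NF-kappaB lists had 6 higher and 4 lower of 35 and 3 and 5 of 30, the latter 3 and 2 without cKO replicate 3. In the fit of the 6 day 0 libraries alone they had 11 and 5 of 29 and 9 and 5 of 29. In the Hedgehog list 1 rose and 4 fell of 13, or 1 and 2 of 14 without cKO replicate 3. The Hedgehog inhibitor gene Hhip fell from 4.86, 4.44 and 4.76 to 0.823, 1.1 and 0.688 CPM (−2.44 ± 0.37).

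Among transcription factors a rise stood out within the POU family itself, of which 3 rose and 2 fell of 14. Pou2f3 (ENSMUSG00000032015, chromosome 9, minus strand, 43123939 to 43210369), a paralogue of Pou2f1 best known from skin and chemosensory cells, was at 7.73, 8.38 and 9.51 CPM in parental and 91.5, 88.9 and 87.1 CPM in cKO libraries (3.38 ± 0.16, adjusted p = 5.93e-11). Every cKO library was far above every parental one. The third paralogue moved the other way. Pou2f2, which encodes Oct2, was at 4.86, 5.57 and 5.93 against 2.1, 2.43 and 2.13 CPM (−1.30 ± 0.22). Pou5f1 rose by 0.76 ± 0.23, with cKO replicate 3 highest at 1734 CPM, a call lost without that library (adjusted p = 0.0793), parental replicate 1 (0.0703) or parental replicate 3 (0.0608).

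The pluripotency factors of other families were not called in 4 cases: Sox2 (−0.05 ± 0.29), Klf4 (0.33 ± 0.35), Esrrb (0.09 ± 0.13) and Nanog (0.11 ± 0.10). Klf4 was at 329, 338 and 329 CPM in parental and 412, 425 and 414 CPM in cKO libraries. Its groups did not overlap, nor did those of Esrrb and Nanog. The SE draws on the spread of all 18 libraries, so an uncalled gene may still differ at day 0. In the main fit 5 of the 12 ESC markers were called higher and 0 lower. Utf1 was at 49.6, 57.1 and 53.4 CPM in parental and 116, 116 and 146 CPM in cKO libraries. Tbx3 was at 288, 293 and 280 against 421, 408 and 402 CPM, and Tfcp2l1 at 902, 877 and 895 against 1448, 1400 and 1082 CPM. Prdm14, a zinc finger factor of ground-state ESCs, rose from 24.7, 28.3 and 29.3 to 69.5, 67.4 and 65.4 CPM (1.30 ± 0.22). In the KLF and SP family, 4 higher and 6 lower of 22, Sp4 fell from 24.3, 21.8 and 24.4 to 8.08, 7.99 and 7.01 CPM (−1.61 ± 0.14), and the TGF-beta-responsive genes Klf10 and Klf11 changed by −0.90 ± 0.14 and −0.94 ± 0.08. Forkhead factors were 7 higher and 9 lower of 34, or 6 and 6 without cKO replicate 3. Foxd1, known from kidney stroma, rose from 1.75, 1.46 and 1.61 to 10.1, 10.3 and 11.4 CPM (2.72 ± 0.48), and Foxp4 from 31.4, 32.9 and 32.3 to 97.5, 102 and 109 CPM (1.67 ± 0.14). Foxd3, an ESC forkhead factor, was not called (0.04 ± 0.17).

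ETS factors split evenly, 5 higher and 5 lower of 21. Etv4, an ETS factor gene counted with the ERK targets and lying on chromosome 11, rose against its chromosome from 2.56, 2.14 and 2.53 to 12.4, 11.8 and 13.2 CPM (2.37 ± 0.13), and the repressor gene Erf rose by 0.82 ± 0.07, whereas Spic changed by −1.16 ± 0.18. The AP-1, ATF and CREB list was 3 higher and 10 lower of 36, or 1 and 10 without cKO replicate 3. Its lower members include Mafg, a small Maf factor on chromosome 11 (−1.27 ± 0.13), and the Fos-family genes Fosl2 (−1.16 ± 0.26) and Fosb (−1.12 ± 0.29), while Bach2 rose by 1.11 ± 0.12. MYC, MAX and E2F genes had 9 lower and 5 higher of 20, or 5 and 5 without cKO replicate 3. Mycn was at 190, 199 and 185 against 112, 119 and 120 CPM (−0.71 ± 0.13), and Myc itself, listed with the ERK targets and named after its values were seen, at 13.9, 16.4 and 14.4 against 22.5, 23.7 and 24.8 CPM (0.67 ± 0.12).

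Homeobox genes leaned upwards, 18 higher and 10 lower of 69, with a median of 0.35, or 13 and 6 of 72 without cKO replicate 3. Cdx1, a caudal factor, rose from 9.54, 11.2 and 11.1 to 31.9, 30.3 and 37 CPM (1.64 ± 0.22), Meis2 by 1.54 ± 0.32 and Zfhx2 by 1.14 ± 0.11. Rhox5, an X-linked reproductive homeobox gene, fell from 92.6, 96.9 and 95.7 to 28.1, 27.8 and 37.8 CPM (−1.60 ± 0.14). Of the AP-2, GRHL, p53 and RUNX families 4 rose and 4 fell of 17, with Grhl2 and Tfap2c among the lower ones. Grhl2 was at 19.2, 19.8 and 19.8 against 8.16, 8.23 and 8.13 CPM (−1.26 ± 0.26), and Tfap2c at 58.9, 61.4 and 60.2 against 24.3, 21.6 and 22.4 CPM (−1.40 ± 0.18). The nuclear receptor gene Nr1d2, a clock repressor, fell from 55.1, 52.6 and 57 to 23.1, 23.6 and 19.1 CPM (−1.33 ± 0.09), and Esrra, a regulator of respiratory genes, rose by 1.06 ± 0.17. Of 15 Zscan4, Dux and related 2-cell embryo factors 14 rose and 1 fell, with a median of 2.19, or 14 and 0 without cKO replicate 3. Zfp352, a zinc finger gene of that list, changed by 3.71. Members of that list belong to multigene families, among which shared reads make the split of counts uncertain.

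**Figure D5:**
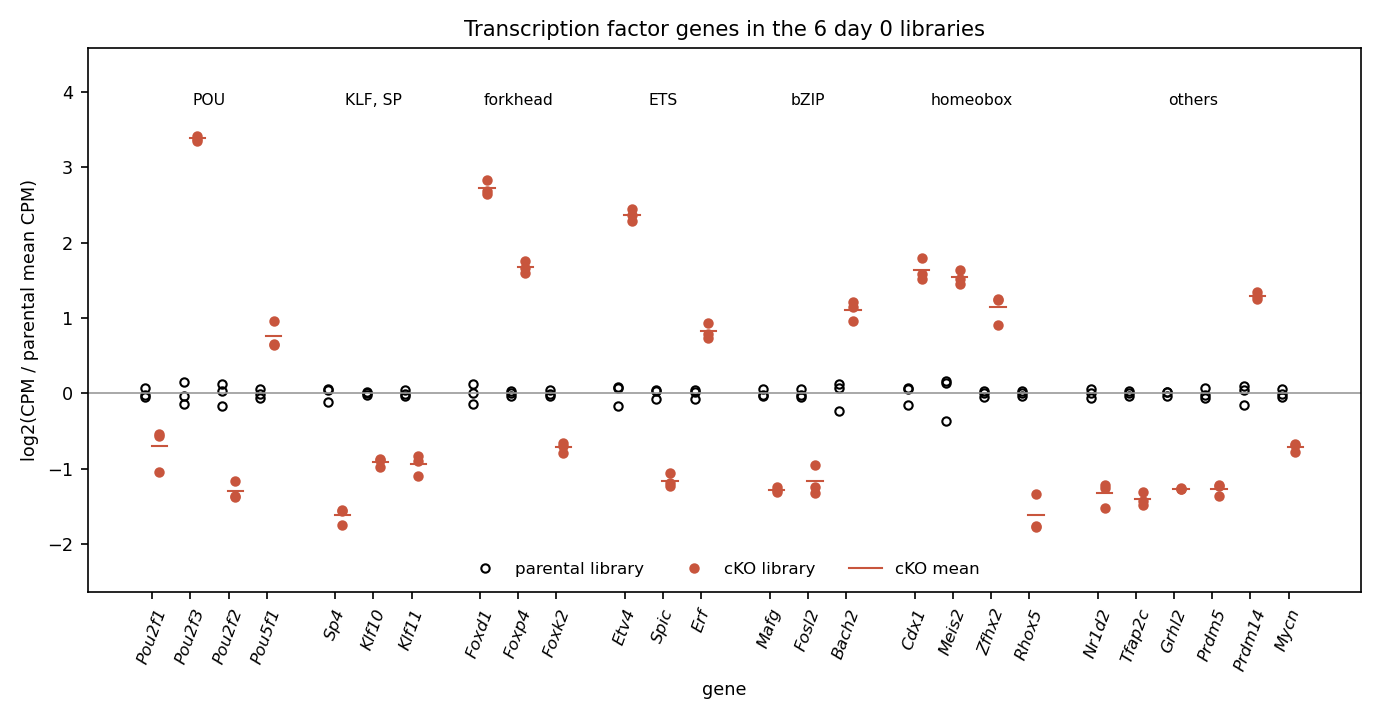
Level of transcription factor genes in each day 0 library as log2 of its CPM over the parental mean (open circles parental, filled circles cKO, line the cKO mean). Of the genes plotted, Pou2f3 lies highest, at a log2 fold change of 3.38, while Pou2f1 and Pou2f2 lie below 0 in every cKO library.

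The octamer was looked for in promoters, since it is the element Oct1 binds. RefSeq promoter windows around the start site (GRCm38.p6) were matched by symbol to 12645 of the genes tested, and ATGCAAAT was searched on both strands. It was present for 1.97% of all genes with a window and 1.75% of those tested. Among called genes the share was 1.62% for higher and 1.79% for lower genes, and 1.67% and 2.92% for those at least 2-fold higher (8 of 480) and lower (19 of 651). No octamer was found in the windows of the 23 genes that had one among Pou2f1 and the 30 largest changes. With at least 2-fold change, a mean of at least 5 CPM and no predicted symbol, 9 of the genes covered held it, 4 higher and 5 lower. This count leaves out the genes of a chromosome whose sequences are not shown, so it can miss genes that hold the octamer. Stretches of Tnc and Pfkfb3, described above, of Col3a1, a further member of the interstitial matrix list, and of Plppr2, the largest change of the 9 (2.11) and named after its values were seen, are shown to place the element, in capitals and read along the gene's strand, where ATTTGCAT is the same element on the other strand. Plppr2, whose window held 4 copies, went from 2.81, 5.01 and 3.77 to 16.3, 15.7 and 18.1 CPM.
Col3a1, a type III collagen gene, −1.83, chr1:45311360-45311427, plus strand: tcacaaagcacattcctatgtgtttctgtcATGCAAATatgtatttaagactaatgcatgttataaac
Tnc, −1.44, chr4:64047094-64047161, minus strand: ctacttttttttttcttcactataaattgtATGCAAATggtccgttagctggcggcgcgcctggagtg
Pfkfb3, −1.09, chr2:11554131-11554179, minus strand: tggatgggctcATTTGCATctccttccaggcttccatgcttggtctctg
Plppr2, 2.11, chr9:21936944-21937011, plus strand: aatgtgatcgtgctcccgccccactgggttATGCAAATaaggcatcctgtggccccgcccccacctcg
A match describes the sequence and not binding of a factor.

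The day 0 differences were followed to the later days, whose comparisons use other libraries. All day 0 libraries carry one library series number in their labels and all libraries of days 3 and 6 another, so day and library series cannot be told apart. Of the 845 genes at least 2-fold higher at day 0, 70 (8.28%) were called higher at day 3 and 186 (22.0%) at day 6, against 6.32% and 19.9% of all genes. Called the opposite way were 43 and 128. Of the 979 genes at least 2-fold lower, 187 (19.1%) were called lower at day 3 and 297 (30.3%) at day 6, against 9.39% and 25.7% of all genes, and 43 and 182 were called higher. Chromosome 11 was not set aside in these counts. Of its 884 genes with a mean of at least 5 CPM, 557 were called lower at day 3 and 628 at day 6. At both later days 24 of the higher and 95 of the lower genes were called the same way as at day 0. The day 3 counts rose to 141 and 298 without cKO day 6 replicate 2, which takes part in the estimate of the spread. Among the genes described, Pou2f3 was called higher at day 3 (1.61) and not at day 6 (0.46), Crlf2 was called lower at both (−3.30 and −2.15), and Aass at day 6 alone (−1.16). Usp26, an X-linked deubiquitinase gene, fell further, from −3.38 at day 0 to −4.34 and −5.44.

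Of the largest changes that fall outside the lists, some lower genes act in meiosis or at membranes. Smc1b, a cohesin subunit of meiosis, went from 30.2, 31.4 and 32.7 to 4.64, 5.33 and 4.75 CPM (−2.68 ± 0.19). Tbc1d9, of a family of Rab regulators, went from 47.7, 48.7 and 47.6 to 6.29, 6.19 and 6.26 CPM (−2.94 ± 0.11). No library of either group came near the other group for this gene. Itpr2, a calcium release channel of the endoplasmic reticulum, changed by −2.57 ± 0.17. Higher genes included Robo4, a guidance receptor of endothelium (2.60 ± 0.29), Rapgef3, an exchange factor activated by cyclic AMP (2.34 ± 0.27), Mymx, needed for muscle cell fusion (2.39 ± 0.22), and the chitinase gene Chit1 (2.33 ± 0.23).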

How the data were processed

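Bulk RNA-seq of 18 libraries was used, 3 per genotype and day, of which the 6 day 0 libraries make up the comparison. The deposited table holds the authors' raw counts per Ensembl gene. The submitters' processing notes name the aligner Novoalign, DESeq2 1.10.0 and the builds mm10 and GRCm38, with no roles. No source used here states how reads were counted, with which annotation, or whether by strand. Coordinates come from GENCODE M21 (GRCm38), which holds 25234 of the 25279 identifiers.

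The tests used edgeR 4.0.16 and, as an alternative, DESeq2 1.42.0 (R 4.3.3, with limma 3.58.1). Tables and the exact permutation tests came from Python 3.11.15 (pandas 2.3.3, numpy 2.4.6, scipy 1.17.1) and plots from matplotlib 3.10.9. After filterByExpr by group, libraries were scaled with TMM factors and fitted as group means over 18 libraries by the robust quasi-likelihood method (biological coefficient of variation 13.5%), with two-sided F tests and Benjamini-Hochberg adjustment over all 20267 genes. CPM use effective library sizes. Shared reads of related or overlapping genes could not be checked, and the fit was tested on simulated data.

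The comparison and its 60 gene lists and 5 marker lists were chosen with earlier results of these data known. Genes were named as follows: Pou2f1; the 15 largest called changes each way with a mean of at least 5 CPM, groups that did not overlap and no predicted symbol; and per list up to 5 called members with the largest change and that mean, all called members where there were 5 or fewer, and up to 2 of the most expressed uncalled members. Members of marker lists could be named too. Some genes the rule names are not reported here. Tnc, Plppr2, Mthfd1 and Myc lie outside this rule. Alternatives were RLE and total-count scaling, no filter, 1 CPM in 3 libraries, the DESeq2 Wald test and the 6 libraries alone. Others were each day 0 library left out, genes outside chromosome 11 and protein-coding genes. For the counts followed to later days, each of the 18 libraries was left out. Added after the data were seen were cKO replicates 1 and 2 summed, list groups outside chromosome 11, and list counts without cKO replicate 3.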

Additional observations from a re-analysis of the deposited data

Results flagged for a closer look

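Of the 30 genes with the largest day 0 changes, 10 were called at all 3 days, and for these the change at a later day was tested against that at day 0 as an interaction in edgeR's model. The 30 genes were chosen by the size of their day 0 change, which the test uses again. That choice by itself favours a smaller change at the later days. Day 0 and the later days belong to different library series, so day and series cannot be told apart. Listed for 9 of the 10 genes are the differences past an adjusted p of 0.05, on the log2 scale, later day minus day 0. Mymx gave −5.69 at day 3 and −4.39 at day 6, having turned from higher to lower in cKO cells. Etv4 gave −2.88 and −1.84, lower at day 3 (−0.51) and higher again at day 6 (0.53). Chit1 gave −5.66 at day 6 and Crlf2 2.38 at day 6. Usp26 gave −0.96 and −2.06 and Stra8 −3.46 and −5.08, both further down at each later day. Igfbp4 gave 2.37 and 3.63 and was slightly higher in cKO at day 6 (0.44). Itpr2 gave 1.91 and 3.61, and Copz2, a coat protein gene on chromosome 11, 1.81 and 1.56. With 3 libraries a group, single genes were not screened for an outlying library.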

How the results depend on the processing

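The counts of called genes stayed within 1.5 times their value under other scalings, filters, DESeq2, the 6 libraries alone, cKO replicates 1 and 2 summed, and outside chromosome 11 or for protein-coding genes. The list groups did so too, except that the fit of the 6 libraries alone raised the metabolism genes higher to 104, adhesion to 92 higher and 102 lower, and signalling to 123 higher and 147 lower; the cause was not tested. Leaving out each day 0 library in turn gave 2368 to 2702 genes higher and 2674 to 2825 lower. It gave 690 to 789 at least 2-fold higher and 810 to 865 at least 2-fold lower. It gave 48 to 65 and 91 to 102 metabolism, 40 to 46 and 55 to 58 adhesion, 62 to 68 and 76 to 82 signalling, and 74 to 79 and 63 to 67 transcription factor genes, higher and lower. These counts were not taken without a library of day 3 or 6. For the genes followed to later days, each of the 18 libraries was left out in turn. Of genes at least 2-fold higher at day 0, 55 to 141 were called higher at day 3 and 153 to 227 at day 6. Of those lower, the counts were 131 to 298 and 237 to 331. The high day 3 ends come from leaving out cKO day 6 replicate 2. Of 435 named genes none reversed where an alternative gave a value (429 had one in DESeq2, 431 in the 6 libraries alone, 432 with 1 CPM in 3 libraries). Leaving out 1 day 0 library ended 28 to 38 calls. Summing cKO replicates 1 and 2 ended 23 and added 1, and the 6 libraries alone added 53 and ended 2. No paired analysis was possible because the numbers in the labels are library numbers, and the parental and cKO day 0 libraries share none. Small changes of genes with few counts are the ones depth limits.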

Other observations

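Grouping genes by the stem of their symbol (at least 8 genes of at least 1 CPM) shows families outside the lists. Of all 13835 genes at that level, 20% were called higher and 22.2% lower. RNA polymerase subunits (Polr) were 10 higher and 0 lower of 28, translation initiation factors (Eif) 24 higher and 6 lower of 54, and Nop nucleolar proteins 5 higher and 0 lower of 8. Centrosome proteins (Cep) were 0 higher and 13 lower of 36, Stk kinases 0 and 11 of 20, and caspases (Casp) 0 and 5 of 8. The stems Rps and Rpl, which hold ribosomal protein genes, were 40 higher and 4 lower of 72 and 27 and 2 of 67. Ribosomal protein mRNA took 6.68% of counts in cKO replicate 3, against 5.41% and 5.48% in the other cKO libraries. The stems were not recounted without that library. They were picked for how they moved and were not tested.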
